A study of Homo sapiens with 6 samples.

Results

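The transcription factor p53 and the genes it switches on were followed in SW-1990 cells, an established human pancreatic adenocarcinoma line taken from a metastasis in the spleen. The members were 37 genes listed as p53 targets, though how closely p53 controls each was not examined. Each was read by the probe set with 1 gene symbol that had the highest mean over all arrays. Of these, 34 were measured, among 19775 genes in all, and BTG2, BBC3 and FDXR had no probe set with 1 symbol and were not analysed here. One group, sh-Ctrl, carried a lentiviral scrambled short hairpin RNA, and the other, sh-PRLR, a lentiviral hairpin against PRLR, the prolactin receptor. Both were kept in 1 μg/ml puromycin for over 7 days, and each had 3 Affymetrix arrays of total RNA that the labels call biological replicates. Whether a group is 1 clone or a pool, and whether its replicates were infected separately, is not given in the labels, so the p-values measure only the spread between these samples.

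When DNA is damaged or growth is disturbed, p53 escapes degradation, binds response elements near its target genes and raises their transcription. Its targets halt the cell cycle, repair DNA, adjust metabolism or start cell death, and some of them, MDM2 first, bind p53 and hold it down in a feedback loop. A response element is a pair of decamers, each made of purines, a C, A or T bases, a G and pyrimidines, and many lie outside the promoter, in introns or further upstream.

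All values are log2 expression values, which cannot be compared between probe sets of different genes, and all differences are sh-PRLR minus sh-Ctrl. Errors of a group are SD (n = 3), and SE is that of the fitted difference. A gene rose or fell where limma with intensity-dependent variance gave an adjusted p under 0.05 over all genes. The 6 arrays shared a trimmed mean by scaling. PRLR itself was lower in sh-PRLR on all 7 of its probe sets, by -0.18 to -1.82, and its average went from 5.02 ± 0.22 to 4.17 ± 0.22, but 0 of the 7 passed limma with intensity-dependent variance or with default settings (2 and 3 had an unadjusted p under 0.05) and all lay below the median gene level of 7.23. Of 7 duct and epithelial markers 6 lay above that median, with CDH1 falling (-0.17), against 0 of 3 immune, 1 of 6 fibroblast and 1 of 4 endothelial markers. The log2 of the summed epithelial markers was 16.47 to 16.57 in the control arrays and 16.47 to 16.52 in sh-PRLR. The fibroblast sums were at 8.59 to 8.65 and 8.57 to 8.71, the immune sums at 6.11 to 7.15 and 5.24 to 6.84, and the endothelial sums at 7.42 to 7.56 and 7.51 to 7.98, and the part of these in the results was not tested.

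To show where p53 could bind close to a start site, the promoter windows of RefSeq (GRCh38.p14, 250 bases before to 50 after a start) were searched for the p53 decamer consensus, which reads the same on both strands. Windows were used for 31 members, and 8 of them, 25.8%, held at least 1 exact decamer in some window, against 8.06% of all genes with a window. An adjacent pair of decamers with a spacer of at most 1 base, matching at least 18 of 20 letters, was present in 4 members, 12.9%, against 1.69% of all genes. Many of these genes became known as targets through such elements, so the excess is no test of the list. The stretches below run along the gene's own strand, with exact decamers in capitals. DDB2 (chr11:47214975-47215004, plus strand, from 2 to 31 bases past its second listed start) matched all 20 letters around a spacer of 1. FAS (chr10:88991299-88991328, plus strand, by the second listed start), AEN (chr15:88621296-88621325, plus strand) and EI24 (chr11:125569457-125569486, plus strand) each held 1 exact decamer, and those of FAS and AEN stood in a pair matching 18 of 20 letters, whose other decamer is the lower-case 10 bases that follow.
DDB2: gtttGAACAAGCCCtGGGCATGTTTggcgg
FAS: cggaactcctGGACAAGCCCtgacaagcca
AEN: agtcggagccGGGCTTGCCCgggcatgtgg
EI24: cgtgcggcccGGGCATGCCCagtgcgggcg

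For MDM2, SESN1, RPS27L and PLK2 the 150 bases before the start are shown. In each the match lay upstream and the gene fell in sh-PRLR, as also in EI24, whose shorter stretch is above. The matches of FAS and AEN lay upstream as well, and neither gene passed. The MDM2 stretch (chr12:68808867-68809016, plus strand) precedes the third of 4 listed starts, and no decamer in it was exact, while the pair, in capitals, matched 18 of 20 letters. MDM2 is known for an internal promoter in its first intron that p53 drives. SESN1 (chr6:109008989-109009138, minus strand, the third of 3 listed starts), RPS27L (chr15:63157478-63157627, minus strand) and PLK2 (chr5:58460087-58460236, minus strand) held 1 exact decamer each. Which start site each probe set reads was not examined.
MDM2: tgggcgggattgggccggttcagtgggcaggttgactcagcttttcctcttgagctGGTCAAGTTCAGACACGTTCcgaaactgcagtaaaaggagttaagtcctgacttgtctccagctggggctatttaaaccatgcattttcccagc
SESN1: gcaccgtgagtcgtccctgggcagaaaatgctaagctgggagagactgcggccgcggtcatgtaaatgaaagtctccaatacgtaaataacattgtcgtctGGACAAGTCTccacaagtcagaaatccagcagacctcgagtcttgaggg
RPS27L: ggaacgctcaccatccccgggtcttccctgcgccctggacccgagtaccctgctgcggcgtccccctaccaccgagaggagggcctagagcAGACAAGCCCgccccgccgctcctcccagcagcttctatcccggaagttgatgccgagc
PLK2: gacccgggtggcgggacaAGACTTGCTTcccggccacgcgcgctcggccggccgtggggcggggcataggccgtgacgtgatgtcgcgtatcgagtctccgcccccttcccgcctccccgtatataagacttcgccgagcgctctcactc

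In sh-PRLR cells 12 of the 34 measured targets fell and 5 rose, while 17 did not pass. Over all genes 4.32% fell and 3.34% rose, 7.66% in all, and among genes at or above the median level, where all measured members but PLK3 lay, 8.17% fell and 6.43% rose, 14.6% in all. The median difference of the members was -0.23, against -0.0013 over all genes and -0.02 over those at or above the median level. Mean values were lower in sh-PRLR for 24 members, 70.59%, and higher for 10. Over all genes 50.13% had a lower mean, and 53.39% of those at or above the median level. These shares and those of falls and rises are also the background of the counts by role below. The fallers included MDM2, CDKN1A, DDB2, ZMAT3, SESN1 and SPATA18, and the risers were MDM4, CCNG2, GADD45B, TNFRSF10B and GDF15. In 25 members every array of one group lay above every array of the other, 19 of them lower and 6 higher in sh-PRLR, where this held for 25.8% of all genes and 38.9% of genes at or above the median level. RNA was taken from whole cultures, so fewer cells with a transcript and less of it per cell cannot be told apart.

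Array by array, the median member stood at -0.04, -0.00 and 0.02 from its sh-Ctrl mean in the 3 control arrays and at -0.20, -0.20 and -0.26 in the sh-PRLR arrays. Each of the 3 sh-PRLR arrays lay below all 3 controls. With limma's default settings, which give all genes one prior variance, 0 of the 34 passed an adjusted p of 0.05, against 0.0202% of all genes (0.0101% higher and 0.0101% lower), while 22 members had an unadjusted p under 0.05, as did 3209 of all 19775 genes and 2297 of the 9888 at or above the median level. The same settings on the genes left after the dimmest 40% were dropped called 12 lower and 5 higher, with EI24 lost and BAX (-0.42) added, where 9.64% of those genes passed, 5.88% lower and 3.76% higher.

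**Figure D1:**
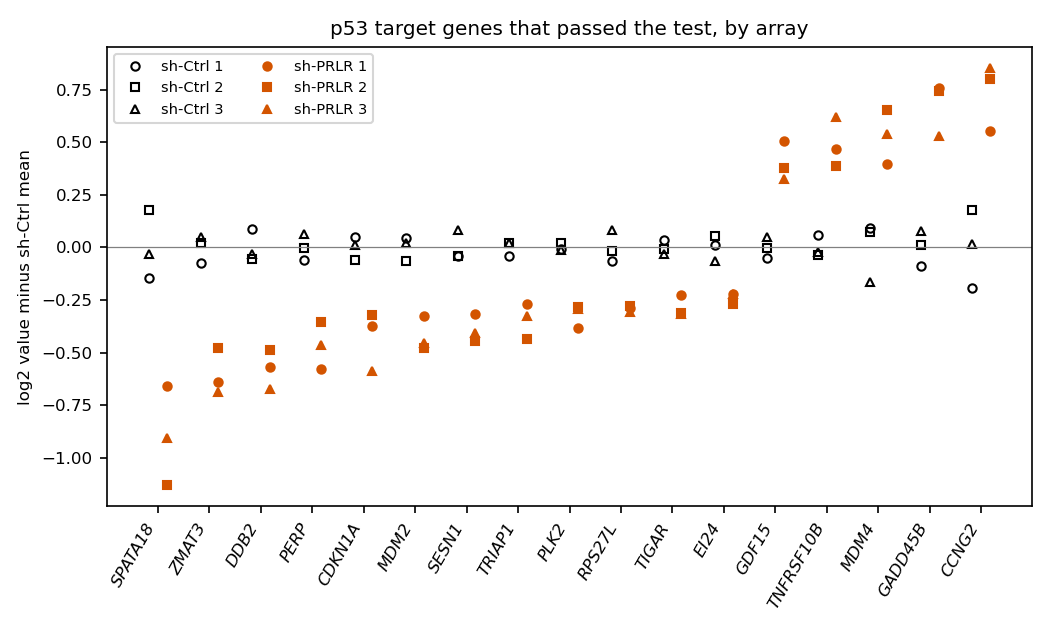
Log2 value of each array minus the sh-Ctrl mean (vertical axis) for the 17 p53 target genes that passed limma with intensity-dependent variance (horizontal axis, ordered by difference). Open black symbols are the 3 sh-Ctrl arrays and filled orange symbols the 3 sh-PRLR arrays, with one shape per replicate number; the groups do not overlap for any of the 17, 12 of which are lower and 5 higher in sh-PRLR.

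The genes that hold p53 itself in check split. MDM2, the ubiquitin ligase that marks p53 for degradation, read 12.75, 12.64 and 12.73 in the control arrays and 12.38, 12.23 and 12.26 in sh-PRLR. Every sh-PRLR array lay below every control, a fall from 12.71 ± 0.06 to 12.29 ± 0.08, 1.34-fold (log2 difference -0.42, SE 0.06, limma adjusted p = 0.00177). MDM4, the relative of MDM2 that binds p53 and blocks its activity, read 10.19, 10.17 and 9.93 in the control arrays and 10.49, 10.75 and 10.64 in sh-PRLR. It rose by 0.53 (SE 0.09, limma adjusted p = 0.00716), with no overlap between the groups. PPM1D, a phosphatase that reverses the damage signal on p53, read 10.14, 10.23 and 10.23 against 10.10, 9.98 and 9.80. Its arrays did not overlap either, but the difference of -0.24 did not pass (SE 0.09, limma adjusted p = 0.135). CCNG1, a cyclin that directs a phosphatase to MDM2, overlapped between groups at 13.86 ± 0.11 and 13.78 ± 0.02.

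Of the 10 probe sets of MDM2, 3 passed and all of those were lower. They were the one above, a second (-0.77, limma adjusted p = 0.00611 when every probe set is counted on its own) and a further one below the median gene level (-1.95, limma adjusted p = 0.0111). Of the other 7, 4 were higher and 3 lower, without passing, and averaging all 10 gave -0.30 with a limma adjusted p of 0.568. For MDM4 5 of 6 probe sets were higher, and 1 passed. The probe set that stands for MDM4 has a name ending in _x_at, which marks sequence shared with other transcripts, and without such probe sets and those ending in _s_at another probe set stood for MDM4, which was higher by 0.27 and did not pass.

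The arrest genes moved both ways. CDKN1A, which encodes the kinase inhibitor p21 and carries much of the arrest that p53 imposes, read 11.80, 11.69 and 11.76 in the control arrays and 11.38, 11.43 and 11.17 in sh-PRLR. It fell 1.35-fold, from 11.75 ± 0.06 to 11.33 ± 0.14 (log2 difference -0.43, SE 0.07, limma adjusted p = 0.00646). PLK2, a polo-like kinase, read 10.85, 10.88 and 10.84 against 10.47, 10.57 and 10.56. The groups were well apart, and PLK2 fell by 0.32 on the log2 scale (SE 0.06, limma adjusted p = 0.0109).

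CCNG2, an unconventional cyclin linked to cells leaving the cycle, had the largest rise of the members. It read 12.01, 12.38 and 12.21 in the control arrays and 12.76, 13.00 and 13.05 in sh-PRLR, a 1.67-fold rise (log2 difference 0.74, SE 0.10, limma adjusted p = 0.00163). All 5 of its probe sets were higher and 3 passed. GADD45B, a stress sensor upstream of p38 and JNK signalling, read 8.40, 8.51 and 8.57 against 9.25, 9.24 and 9.02, with no overlap. It rose by 0.68 (SE 0.11, limma adjusted p = 0.00455), and all 4 of its probe sets were higher, 3 of them passing. All those 3 end in _x_at or _s_at, and the remaining one was higher by 0.20 (limma adjusted p = 0.794), while the average of the 4 was higher by 0.67 and missed the limit (limma adjusted p = 0.0527). Its close relative GADD45A did not pass, with 12.98 ± 0.07 against 13.11 ± 0.09 (0.13, SE 0.06, limma adjusted p = 0.218).

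SFN, the stratifin protein that sequesters mitotic kinases after damage, read 14.24, 14.26 and 14.33 against 14.43, 14.45 and 14.38. These arrays did not overlap, yet the difference of 0.15 missed the limit (SE 0.04, limma adjusted p = 0.0608), while a second, nearly as bright SFN probe set was higher by 0.18 and passed (limma adjusted p = 0.0218). PLK3, a further polo-like kinase, was the one member below the median gene level, and its arrays scattered widely, with 6.44 ± 0.47 in the controls and 6.41 ± 0.76 in sh-PRLR. Of the 7 measured arrest genes, 2 fell, 2 rose and 3 did not pass.

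**Figure D2:**
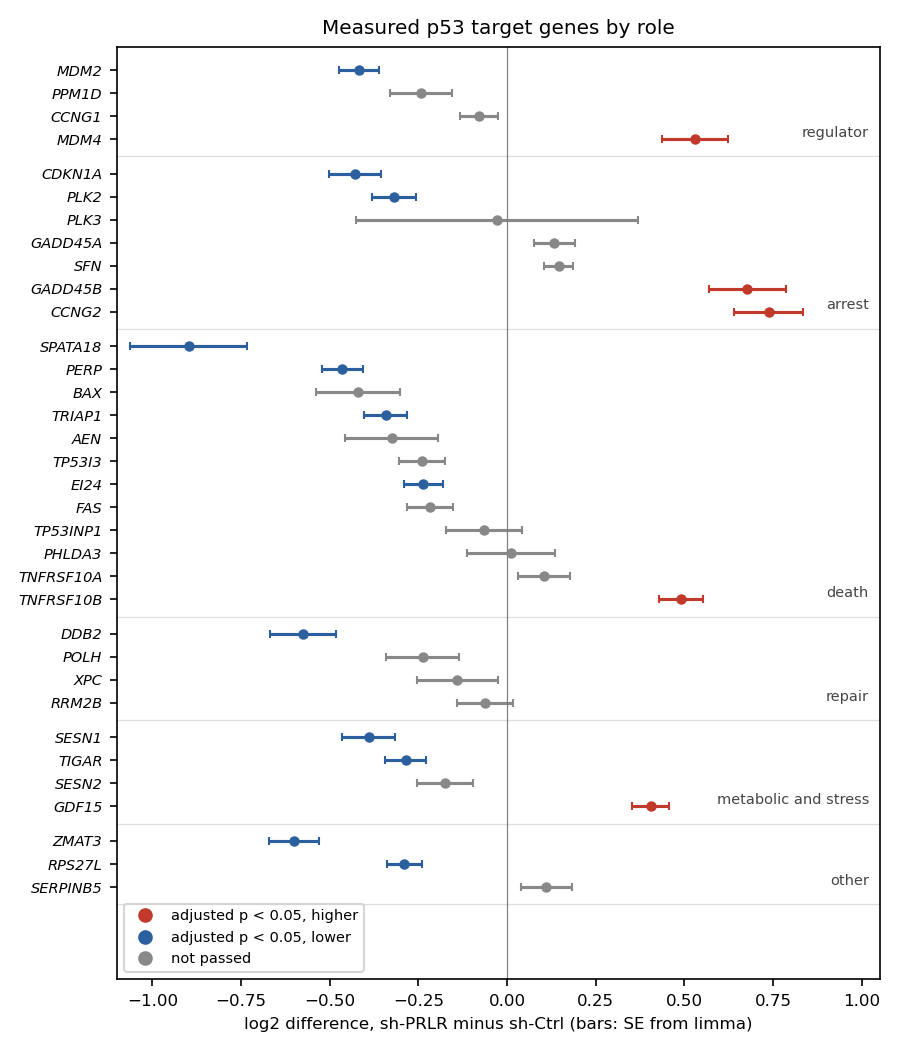
Log2 difference, sh-PRLR minus sh-Ctrl (horizontal axis), of the 34 measured p53 target genes grouped by role (vertical axis). Points are fitted differences and bars are limma SE; blue marks the 12 that fell, red the 5 that rose and grey the 17 that did not pass, and all 4 repair genes lie left of 0, 1 of them a faller.

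Among the 12 measured genes grouped under cell death, 4 fell, 1 rose and 7 did not pass, and the group holds genes that promote death, counter it or act on mitochondria. PERP, a membrane protein of desmosomes that p53 induces in dying cells, read 14.34, 14.40 and 14.47 in the control arrays and 13.83, 14.05 and 13.94 in sh-PRLR. It fell 1.38-fold (log2 difference -0.46, SE 0.06, limma adjusted p = 0.00125). Its 3 brighter probe sets were all lower and its 2 dimmest higher. The average of all 5 was therefore higher by 0.21, without passing (limma adjusted p = 0.549). The 2 PERP probe sets that passed end in _x_at or _s_at. Without such probe sets PERP differed by -0.39 and did not pass (limma adjusted p = 0.28). SPATA18, also called Mieap, which takes part in the quality control of mitochondria, had the largest difference of all members. It read 8.21, 8.54 and 8.32 against 7.70, 7.23 and 7.45, a 1.86-fold fall (log2 difference -0.90, SE 0.17, limma adjusted p = 0.00892).

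TRIAP1, a small mitochondrial protein that counters apoptosis, read 11.62, 11.68 and 11.68 in the control arrays and 11.39, 11.22 and 11.33 in sh-PRLR. It fell by 0.34 on the log2 scale (SE 0.06, limma adjusted p = 0.00688). EI24, a membrane protein of the endoplasmic reticulum, read 11.84, 11.89 and 11.76 against 11.61, 11.56 and 11.61. This was the smallest fall that passed (-0.24, SE 0.05, limma adjusted p = 0.0245), and both of its probe sets passed.

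The receptors of this group did not move together. TNFRSF10B, the death receptor DR5 for the ligand TRAIL, read 13.00, 12.91 and 12.92 in the control arrays and 13.41, 13.33 and 13.56 in sh-PRLR. It rose 1.40-fold, with no overlap (log2 difference 0.49, SE 0.06, limma adjusted p = 0.0012). The rise was that of 1 of 4 probe sets, as 2 others were higher by 0.14 and 0.16 and the dimmest was lower by -0.78, without passing, and their average was higher by 0.0014 (limma adjusted p = 0.997). TNFRSF10A, the second TRAIL receptor, differed by 0.10 (limma adjusted p = 0.495). FAS, the receptor for FAS ligand, read 10.61, 10.68 and 10.62 against 10.44, 10.35 and 10.48. All 5 of its probe sets were lower, but the difference of -0.22 did not pass (SE 0.07, limma adjusted p = 0.0746).

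BAX, which opens the outer mitochondrial membrane, read 8.68, 8.77 and 8.92 in the control arrays and 8.26, 8.38 and 8.48 in sh-PRLR. The groups did not overlap, but BAX missed the limit (-0.42, SE 0.12, limma adjusted p = 0.0569). The second BAX probe set was higher by 0.29 without passing. TP53I3, an oxidoreductase that makes reactive oxygen species, was also at the limit, with 11.18 ± 0.07 against 10.94 ± 0.07 (-0.24, limma adjusted p = 0.0509). The nuclease gene AEN (-0.33, limma adjusted p = 0.183), TP53INP1 (-0.06) and PHLDA3, an inhibitor of AKT (0.01), did not pass.

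All 4 repair genes had lower means in sh-PRLR, and 1 of them fell. All 4 lay above the median level, where 53.39% of genes had a lower mean and 8.17% fell. DDB2, which finds ultraviolet lesions for nucleotide excision repair, read 9.66, 9.52 and 9.55 in the control arrays and 9.01, 9.09 and 8.90 in sh-PRLR. It fell 1.49-fold, with no overlap (log2 difference -0.58, SE 0.09, limma adjusted p = 0.00453). Beside it, XPC, the other lesion sensor of that pathway, was at 10.53 ± 0.06 against 10.39 ± 0.26, with overlap (-0.14, limma adjusted p = 0.568). POLH, a polymerase that copies past lesions, read 8.70, 8.73 and 8.81 against 8.51, 8.49 and 8.52 on its brightest probe set. These groups did not overlap, but the difference did not pass (-0.24, SE 0.10, limma adjusted p = 0.223), and 4 of its 6 probe sets were higher. The average of all 6 was higher by 0.061, without passing. RRM2B, a subunit of ribonucleotide reductase used outside S phase, differed by -0.06 (SE 0.08).

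In the metabolic and stress group 2 of 4 measured genes fell and 1 rose. SESN1, a sestrin that restrains mTORC1, read 10.23, 10.23 and 10.35 in the control arrays and 9.95, 9.83 and 9.86 in sh-PRLR. It fell by 0.39 on the log2 scale (SE 0.07, limma adjusted p = 0.0108). SESN2, its stress-induced relative, read 10.22, 10.14 and 10.34 against 9.98, 10.11 and 10.09. Its lowest control array lay just above its highest sh-PRLR array, and the difference did not pass (-0.18, SE 0.08, limma adjusted p = 0.243), while its second probe set was higher by 0.31 without passing. TIGAR, which lowers fructose-2,6-bisphosphate and with it glycolysis, read 11.26, 11.21 and 11.19 against 10.99, 10.91 and 10.90. The groups stood apart, with a fall of 1.22-fold (log2 difference -0.29, SE 0.06, limma adjusted p = 0.0139).

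GDF15, a secreted cytokine of the stressed cell, went the other way. It read 13.98, 14.03 and 14.08 in the control arrays and 14.54, 14.41 and 14.36 in sh-PRLR, a 1.32-fold rise without overlap (log2 difference 0.40, SE 0.05, limma adjusted p = 0.00137). That probe set ends in _x_at, and the other 2 were higher by 0.05 and 0.33 without passing.

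Of the remaining targets, ZMAT3, an RNA-binding zinc finger protein that alters splicing and transcript stability downstream of p53, had the smallest p of all members. It read 11.20, 11.30 and 11.32 in the control arrays and 10.64, 10.79 and 10.59 in sh-PRLR, a 1.52-fold fall (log2 difference -0.60, SE 0.07, limma adjusted p = 0.00091). All 5 of its probe sets were lower, by -0.38 to -0.61, and 4 passed. RPS27L, a relative of a ribosomal protein, read 13.05, 13.11 and 13.20 against 12.83, 12.84 and 12.81. It fell by 0.29 on the log2 scale (SE 0.05, limma adjusted p = 0.00619), and its other probe sets gave -0.39 without passing (limma adjusted p = 0.0517) and -1.26, which passed. SERPINB5, the serpin called maspin, read 10.85, 10.76 and 10.81 against 10.82, 11.05 and 10.88, with overlap (0.11, limma adjusted p = 0.454).

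**Figure D3:**
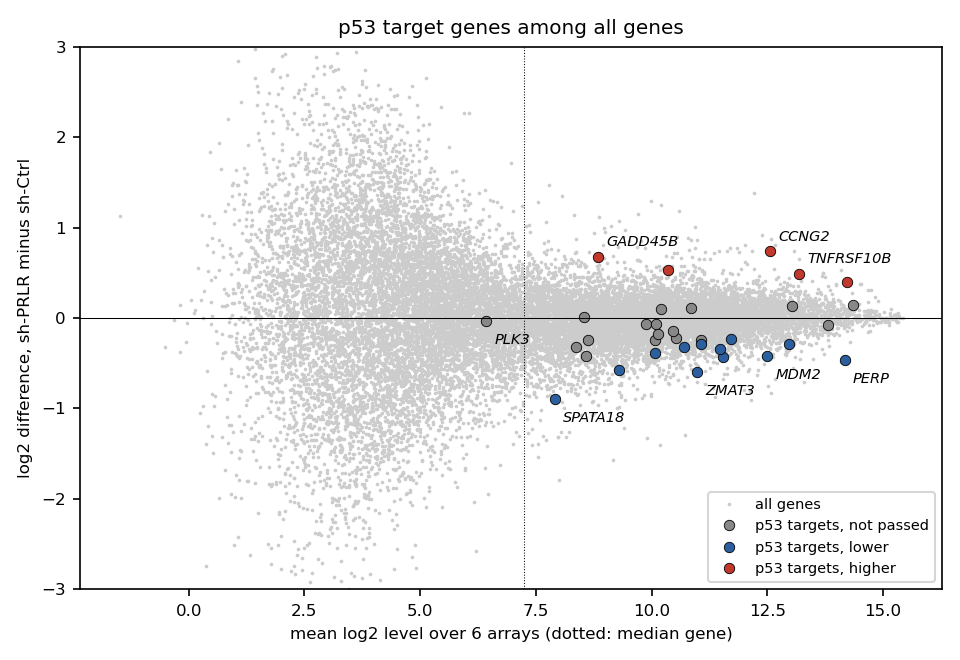
Mean log2 level over the 6 arrays (horizontal axis) against the log2 difference, sh-PRLR minus sh-Ctrl (vertical axis), for 19775 genes in grey and the 34 measured p53 targets in colour, with 30 genes beyond 3 in either direction not shown. The dotted line is the median gene level of 7.23; 33 of the 34 targets lie above it, where grey points scatter less, and the 12 blue fallers lie below 0.

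Probe sets of the same gene offer a second reading of the same RNA. The 34 members had 94 probe sets, of which 30 passed, 20 lower and 10 higher, where 4.67% of all probe sets tested passed, 2.5% lower and 2.17% higher. No probe set passed against the sign of the one chosen for its gene. Of the 17 genes that passed, 11 had further probe sets. Among these further probe sets, 20 of 22 above the median gene level and 10 of 16 below it had the sign of the chosen one, and the exceptions above the median were both of MDM2. CDKN1A, DDB2, PLK2, SESN1, TIGAR and TRIAP1 were each read by 1 probe set and have no such second reading.

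**Figure D4:**
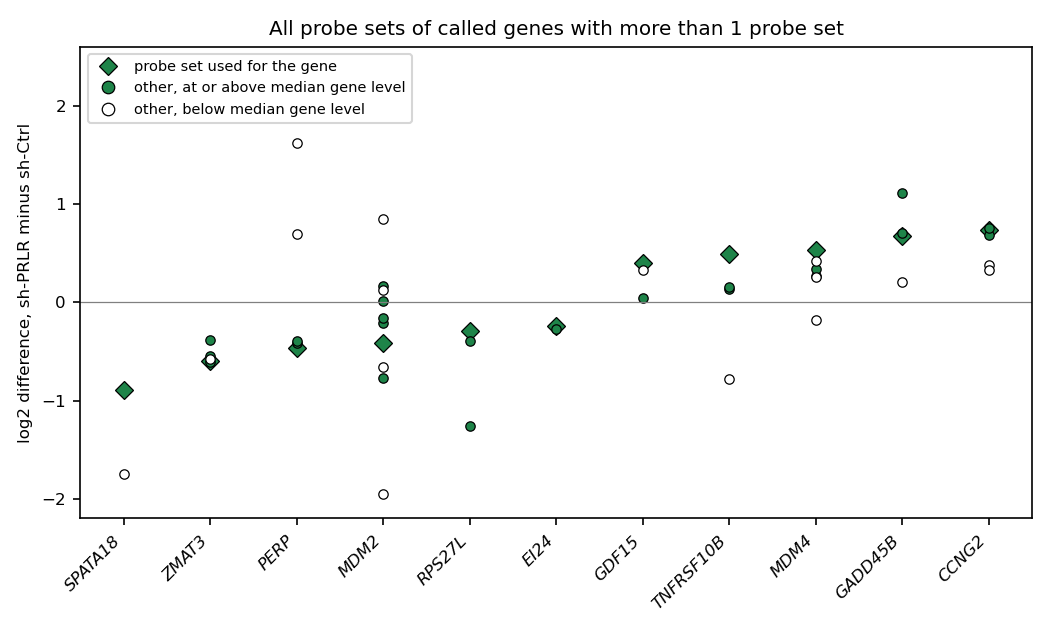
Log2 difference, sh-PRLR minus sh-Ctrl (vertical axis), of every probe set of the 11 called genes with more than 1 probe set (horizontal axis). Diamonds are the probe sets that stand for the gene, filled circles other probe sets at or above the median gene level and open circles those below it; the filled symbols of ZMAT3, RPS27L, PERP, CCNG2 and GADD45B share a sign, while those of MDM2 spread from -0.77 to 0.17.

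Set against the promoter windows above, all 7 measured members with an exact decamer had a lower mean in sh-PRLR, and 5 of these fell, DDB2, SESN1, PLK2, RPS27L and EI24, while FAS and AEN did not pass. With MDM2, which had the imperfect pair, 8 of 8 were lower and 6 fell. Of all 28 measured members with a window used, 22 were lower and 12 fell. Over all genes 50.13% had a lower mean and 4.32% fell, and at or above the median level 53.39% and 8.17%. Other genes with such matches were not compared between the groups. Of the 20 measured members with a window used and neither match, 14 were lower, 6 fell and 4 rose. These risers were MDM4, CCNG2, GADD45B and GDF15, and for the remaining riser, TNFRSF10B, no window was used. By best pair the members with and without a match overlapped. PLK2 matched 15 of 20 letters and EI24 16, while GDF15 matched 17, CCNG2 and GADD45B 16 and MDM4 15. The best pairs of SESN1 and RPS27L matched 17, those of FAS, AEN and MDM2 18 and that of DDB2 20. CDKN1A and ZMAT3 fell with neither match in these windows, and the windows say nothing of elements further away. These counts were made after the differences were known and were not tested.

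**Figure D5:**
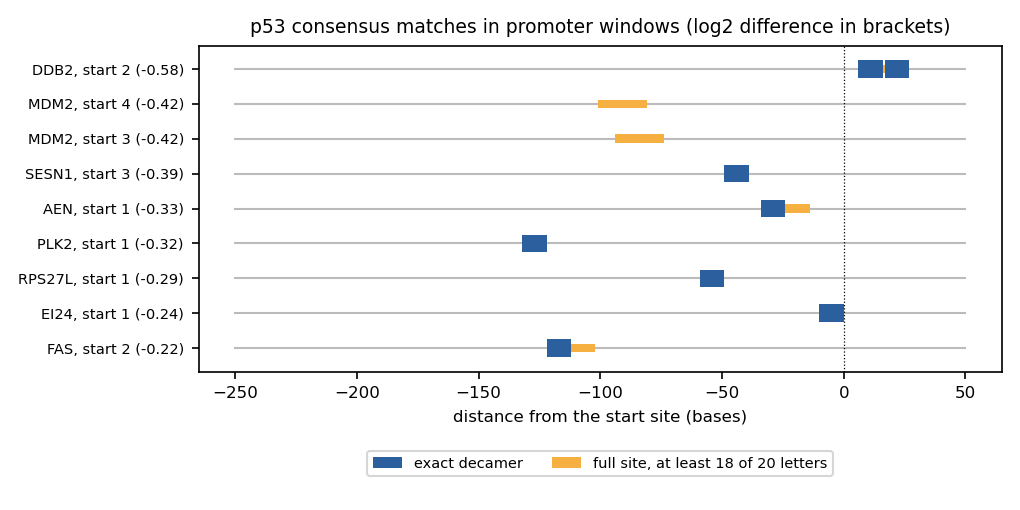
Position of matches to the p53 consensus, in bases from the start site (horizontal axis), in 9 promoter windows of 8 measured members (vertical axis, with the number of the listed start and the log2 difference, sh-PRLR minus sh-Ctrl). Blue bars are exact decamers and orange bars pairs matching at least 18 of 20 letters; matches lie between -132, in PLK2, and 26, in DDB2, and all 8 differences are below 0.

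A further 30 genes described as p53 targets, not among the members, were followed in the same fit. Of 29 measured, 10 fell and 3 rose, with a median of -0.23, beside 7.66% passing over all genes. At or above the median level, where 25 of the 29 lay, 14.6% of genes passed. The fallers with the smallest p were TM7SF3, a transmembrane protein (-0.46, SE 0.05, limma adjusted p = 0.000916), and TRIM22, an antiviral ubiquitin ligase. TRIM22 read 7.21, 6.95 and 7.39 in the control arrays and 5.10, 4.99 and 5.37 in sh-PRLR (-2.03, limma adjusted p = 0.00237), and its sh-PRLR arrays lay below 5.93, the level under which the dimmest 40% of genes lie. STEAP3, a ferrireductase (-0.81, SE 0.11, limma adjusted p = 0.00253), and FAM210B, a mitochondrial protein (-0.46, SE 0.07, limma adjusted p = 0.00373), fell as well. The risers, named after their values were seen, were the stress factor gene ATF3 (0.49), TNFAIP8 (0.36) and BTG1 (0.22). The count of fallers rests on all 6 arrays, since leaving out any one of them left 4 to 6. Among all genes the count of falls then also shrank, from 854 to between 369 and 799.

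Of 17 measured genes that act on p53 from above, 1 fell and 0 rose, a share near the 7.66% of all genes. With limma's default settings 0 were called and 2 had an unadjusted p under 0.05, as did 3209 of all 19775 genes. At or above the median level, where 16 of the 17 lay, both shares were larger. There 14.6% of genes passed with intensity-dependent variance, and 2297 of 9888 had such an unadjusted p. The faller was RCHY1, a ubiquitin ligase also called PIRH2, at 12.33 ± 0.04 in the control arrays and 12.10 ± 0.05 in sh-PRLR (-0.23, SE 0.05, limma adjusted p = 0.0208). It was no longer called when any one array other than sh-PRLR replicate 1 was left out. The median of these 17 was 0.03.

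Genes that p53 lowers indirectly, through p21 and the DREAM repressor complex, had a median of 0.01. Of 10 measured 2 fell and 0 rose with intensity-dependent variance, and 3 had an unadjusted p under 0.05 with limma's default settings, which called 0. These counts are near the background, as all 10 lay above the median level, where 14.6% of genes passed and 2297 of 9888 had such an unadjusted p. The fallers were FOXM1, a factor that drives mitotic genes, at 10.64, 10.65 and 10.62 against 10.16, 10.15 and 10.03 (-0.52, SE 0.07, limma adjusted p = 0.00136), and MYBL2, a factor that works with it (-0.72, SE 0.13, limma adjusted p = 0.00717). Over the 10 genes 5 means were higher and 5 lower, from -0.72 to 0.35.

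Leaving out 1 array at a time kept all 5 risers and left 8 to 12 fallers. EI24 and TIGAR were lost without sh-Ctrl replicate 1, sh-Ctrl replicate 2, sh-PRLR replicate 2 or sh-PRLR replicate 3, and PLK2 and SPATA18 without sh-Ctrl replicate 2. ZMAT3, DDB2 and CCNG2 passed in every alternative but limma's default settings on all genes, and so did CDKN1A wherever its probe set, which ends in _s_at, was used. Centring each array on its median, which moved the median of all genes from -0.0013 to -0.035, left 4 risers and 6 fallers among the members, 40% higher in place of 29.4%, and 143 higher and 361 lower of all genes, 28.4% higher in place of 43.6%. The member calls lost on centring were PLK2, EI24, TRIAP1, SESN1, TIGAR, RPS27L and GDF15, with limma adjusted p from 0.0766 to 0.184. Averaging the probe sets of a gene ended the calls of MDM2, MDM4, GADD45B, TNFRSF10B, SPATA18, GDF15 and PERP. Without the dimmest 40% of genes, SFN (limma adjusted p = 0.0451), BAX (0.031), FAS (0.0415) and TP53I3 (0.0258) passed as well.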

How the data were processed

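Total RNA was measured on 6 arrays, 3 a group. The authors deposited a log2 value for each probe set on each array, and the tools listed per the submitters' processing notes are MAS5, RMA and affy, with no order. On the linear scale the mean of each array with 2% trimmed at either end was 500.0, so the values were taken as scaled and not normalised again. Of 54675 probe sets, 41097 had 1 gene symbol in the platform annotation, 1801 several and 11777 none there, and 62 control probe sets were left out.

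Each gene took its probe set with the highest mean. Groups were compared with limma 3.58.1 (R 4.3.3), eBayes with trend and robust, two-sided, with Benjamini-Hochberg adjustment over 19775 genes, or over 41091 probe sets where probe sets are named, and a threshold of 0.05. The fit and the promoter search were tested on simulated data. The simulated arrays had independent noise, with changes planted only in genes at or above the median level. That run therefore says nothing of effects shared between arrays. Figures used matplotlib 3.10.9.

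The members, the lists, the test and the alternatives were chosen with earlier results of these data known. Values by array are given for members that passed, for MDM2, CDKN1A, MDM4, BAX and FAS, and for the largest difference of each role that did not pass, with others by level or difference. Of each further list at most 4 called genes with the smallest p were named, with exceptions marked. Precision is limited by the 3 arrays a group.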

Additional observations from a re-analysis of the deposited data

How the results depend on the processing

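With limma's default settings 0 members rose and 0 fell, 0 of their probe sets passed, 0 further targets, 0 regulators and 0 genes repressed through p21 passed, and of all genes 2 rose and 2 fell. Median centring left 4 members higher and 6 lower, 0 further targets higher and 5 lower, 0 regulators lower, 143 genes higher and 361 lower, and a member median of -0.26. Averaging probe sets left 1 member higher and 9 lower, 0 further targets higher and 4 lower, 0 regulators lower, 275 genes higher and 334 lower, and a median of -0.16, and turned PLK3 (0.33), PHLDA3 (-0.18), PERP (0.21), POLH (0.061), SESN2 (0.066) and SERPINB5 (-0.028). Without _x_at and _s_at probe sets 26 members remained measured, with 3 higher and 8 lower, a median of -0.10, 1 further target higher and 3 lower, 0 regulators and 1 gene repressed through p21 lower, and 567 genes lower. The filter on dim genes gave 6 members higher and 15 lower and added 1 rise among genes repressed through p21. Quantile normalisation and trend without robust kept all 17 member calls. Default settings on the filtered genes, chosen after seeing the data, kept 16.

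With 1 array left out, member medians ran from -0.24 to -0.20, member rises stayed at 5 and falls ran from 8 to 12, further targets lower from 4 to 6, regulators lower from 0 to 1, genes repressed through p21 higher from 0 to 1, and all genes from 296 to 523 higher and from 369 to 799 lower. PHLDA3 turned to -0.023 on centring. With 1 array left out, PHLDA3 ran from -0.066 to 0.093 (below 0 without sh-Ctrl replicate 2 or sh-PRLR replicate 3), PLK3 from -0.31 to 0.40 (above 0 without sh-Ctrl replicate 3 or sh-PRLR replicate 3) and TP53INP1 from -0.13 to 0.048 (above 0 without sh-PRLR replicate 3). The causes were not tested beyond the smaller number of probe sets or arrays. The replicate numbers share no stated culture or day, and same-numbered arrays deviated with correlations of -0.056, 0.059 and -0.10 across genes. With the replicate number as a block, 5 members were higher and 11 lower, EI24 being lost, and of all genes 445 were higher and 645 lower.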
